A study of Mus musculus with 15 samples.

Results

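E7 clone 1 (E7.1) is a Foxp1-edited derivative of the mouse B-cell lymphoma line A20, and its transcriptome was compared with that of the unedited A20 parental cells. The comparison used 6 of the 15 RNA-seq libraries of the series, 3 from E7.1 and 3 from the parental line, and was made gene by gene on the deposited read counts. Of 41388 genes in the tables, 13904 passed the filter on low counts and were tested. The other libraries came from the exon 6 clones E6.1 and E6.2 and from the second exon 7 clone, E7.2, with 3 libraries each. They entered the same fit and served to show where E7.1 differed from its fellow clones.

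A20 is an established B-lymphoma line from a BALB/c mouse that grows in culture and forms tumors in immunocompetent hosts. All 4 edited lines were grown from single sorted cells after transfection with a plasmid that carried Cas9 and a Foxp1 guide, so each is 1 clone, and a difference between E7.1 and the parental line cannot be told apart from a difference that the founder cell of the clone already carried. The parental cells carried no guide. E7.1 received the guide for exon 7, and the Sanger sequencing described for the clones placed a frameshift and an early stop codon in each. No drug or ligand was given to either group. The 3 libraries of a line came from biological replicates taken at separate passages, so the p-values measure the spread between passages of a line and not between clones.

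Foxp1 encodes a forkhead transcription factor that acts largely as a repressor, binds DNA as a dimer with its relatives Foxp2 and Foxp4, and is needed for early B-cell development. In human diffuse large B-cell lymphoma it is often highly expressed, and it is known there for holding down MHC class II genes and genes that FOXO factors activate. The study edited it in A20 to ask what the lymphoma cells gain or lose, in particular in antigen presentation.

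Exon 7 by the annotation is shown because the labels place the edit of E7.1 in exon 7. The guide's target was not located here, so it was not checked whether the labels number the exons as these transcripts do. Only Foxp1 transcripts with 19 exons and a wholly coding exon 7 were considered. In 2 of these 3 transcripts, exon 7 lies on the minus strand at chr6:99015424-99015510 of GRCm38 and is 87 bases long. It belongs to 9 of the 31 annotated transcripts. The sequence is written on the coding strand, 5′ to 3′.
Foxp1 exon 7: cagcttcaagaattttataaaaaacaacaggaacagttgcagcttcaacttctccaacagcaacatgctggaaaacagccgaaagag
It lies in the glutamine-rich part of the coding sequence, ahead of the DNA-binding domain.

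Foxp1 itself (ENSMUSG00000030067, chromosome 6, from 98925338 to 99522721, minus strand) was lower in E7.1. Levels are given as CPM scaled by the trimmed mean of M values, written as normalized CPM. The parental libraries held 102, 166 and 147 normalized CPM of Foxp1, and the E7.1 libraries 41.7, 64.2 and 64.3. The groups did not overlap, and the log2 fold change was -1.29 ± 0.20 (SE; adjusted p = 0.00688, edgeR quasi-likelihood test). The call held when any one of the 6 libraries was left out, with adjusted p between 0.00278 and 0.0489. Since reads were counted over the whole gene, this value measures transcript and says nothing of the protein that the edited transcript can give. For the protein, the paper reports Western blots of the sequenced replicates in which the Foxp1 knockout stayed stable over passages. It also reports no Foxp1 protein in the E7.1 cells that it implanted in mice.

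Of the relatives, Foxp4 was at 24.7, 27.2 and 21.4 normalized CPM in the parental libraries and at 26.5, 24.3 and 26.8 in E7.1. The groups overlapped, with a log2 fold change of 0.08 ± 0.23 (adjusted p = 0.881) whose sign changed without parental replicate 3. Foxp2 and Foxp3 had at most 6 and 7 counts in any of the 6 libraries and were not tested. The methods name 3 genes with the closest matches to the exon 7 guide. Zfp804b had 0 counts in all libraries. Rhpn2 was low, at 1.57, 1.25 and 1.14 normalized CPM in the parental line and 0.536, 1.10 and 0.984 in E7.1 (adjusted p = 0.362), and Nemp1, known also as Tmem194, was at 85.5, 113 and 100.4 against 85.1, 82.4 and 91.8 (adjusted p = 0.741).

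The 6 libraries held between 32308691 and 37502888 counts on genes. The 8 B-cell markers summed to between 4042 and 4535 normalized CPM in the parental libraries and between 4429 and 4979 in E7.1, while the markers of T cells summed to at most 0.514 and those of fibroblasts and erythroid cells to at most 0.212. Myeloid markers lay between 7.102 and 19.3 in the parental libraries and between 10.9 and 18.2 in E7.1, plasma cell markers between 1553 and 2109 and between 1644 and 1785, and epithelial markers at no more than 2.66, and no tested marker of any type was called. Parental replicate 1 lay nearest to E7.1 on the first principal component, at -7.98 against 11.3 and 8.59 for the other parental libraries and -54.5 to -37.9 for E7.1. The libraries E6.2 replicate 3 and E7.2 replicate 3 stood apart at one end of the second component, at 74.0 and 67.0, and E6.2 replicate 1 at the other, at -49.7, with the remaining 12 libraries between -16.4 and 6.35. E6.2 replicate 1 also had the most extreme value on the first component, 70.2, and the highest share of counts in its 10 most abundant genes, 20.4%.

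At an adjusted p under 0.05, 114 genes were called lower in E7.1 than in the parental line (0.820% of those tested) and 55 higher (0.396%), 169 in all (1.22%). In all 169 the E7.1 and parental libraries did not overlap, which held for 32.0% of all tested genes. At an unadjusted p under 0.05 1382 genes (9.94%) were higher and 1392 (10.01%) lower. The lower genes were changed by more, with a median log2 fold change of -1.52 against 0.86 for the higher genes. A difference above 3 on the log2 scale was found for 37 lower and 3 higher genes. The median gene length, as the exon bases of a gene merged over its annotated isoforms, was 4584 for the lower, 2683 for the higher and 3201 for the uncalled genes.

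**Figure D1:**
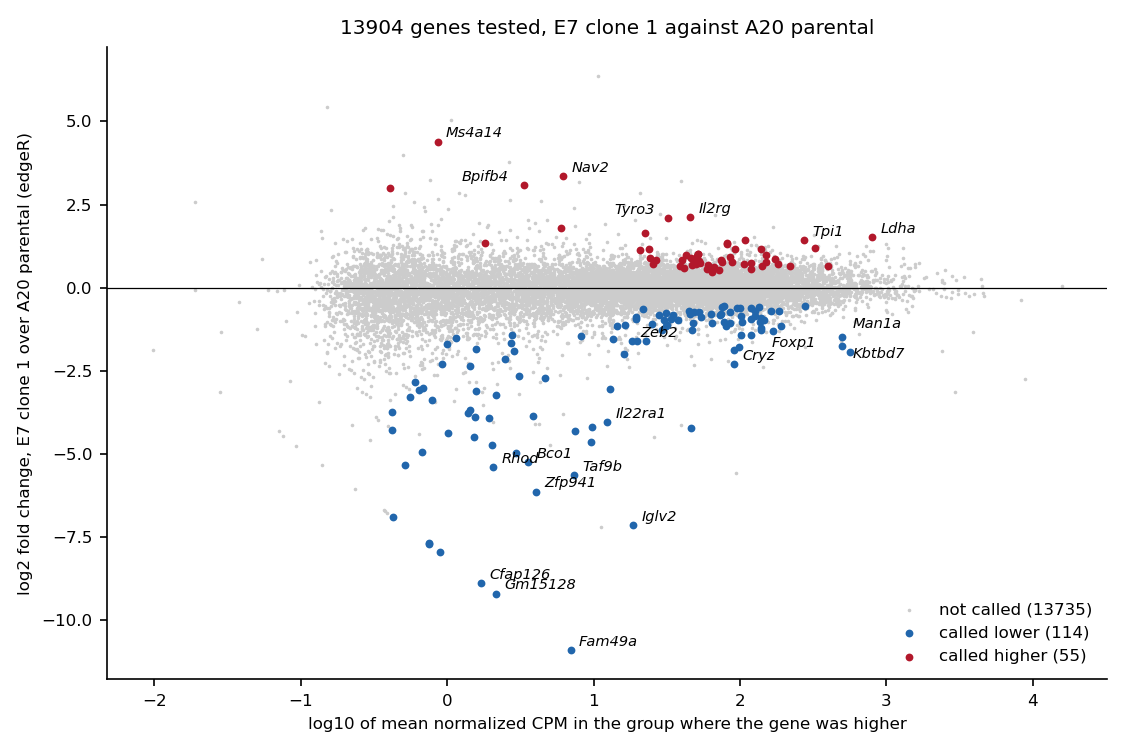
Each point is 1 of the 13904 tested genes, with the log10 of the mean normalized CPM in the group where it was higher on the x axis and the fitted log2 fold change, E7.1 over A20 parental, on the y axis. The 114 genes called lower (blue) reach down to -10.90 for Fam49a, and the 55 called higher (red) lie mostly between 0.5 and 2.

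The number of calls rested on single libraries. Without parental replicate 1 it was 474 lower and 514 higher. Without parental replicate 2 it was 29 and 3, without parental replicate 3 it was 30 and 2, and without E7.1 replicate 1, 2 or 3 it was 32 and 4, 46 and 22, and 30 and 4. With E6.2 replicate 3 and E7.2 replicate 3 (below, the 2 outlying libraries) left out together, a choice made after the data were seen, 1028 genes were called lower (7.39%) and 1176 higher (8.46%), and all 169 genes of the main list were among them. With E6.2 replicate 1 left out as well, likewise chosen afterwards, it was 1254 (9.02%) and 1306 (9.39%), again with all 169. With the 6 compared libraries fitted alone it was 110 (0.791%) and 32 (0.230%), with 87 of the 169 among them. Over all tested genes the shares called without parental replicate 1 were 3.41% lower and 3.70% higher, and by DESeq2 3.93% and 4.39%. Of the 114 lower genes, 27 stayed called whichever of the 6 libraries was removed, and of the 55 higher genes 2 were, Il2rg and Tyro3. Calls described below as held are of this kind, and for the rest the losses in the leave-one-out fits are given.

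**Figure D2:**
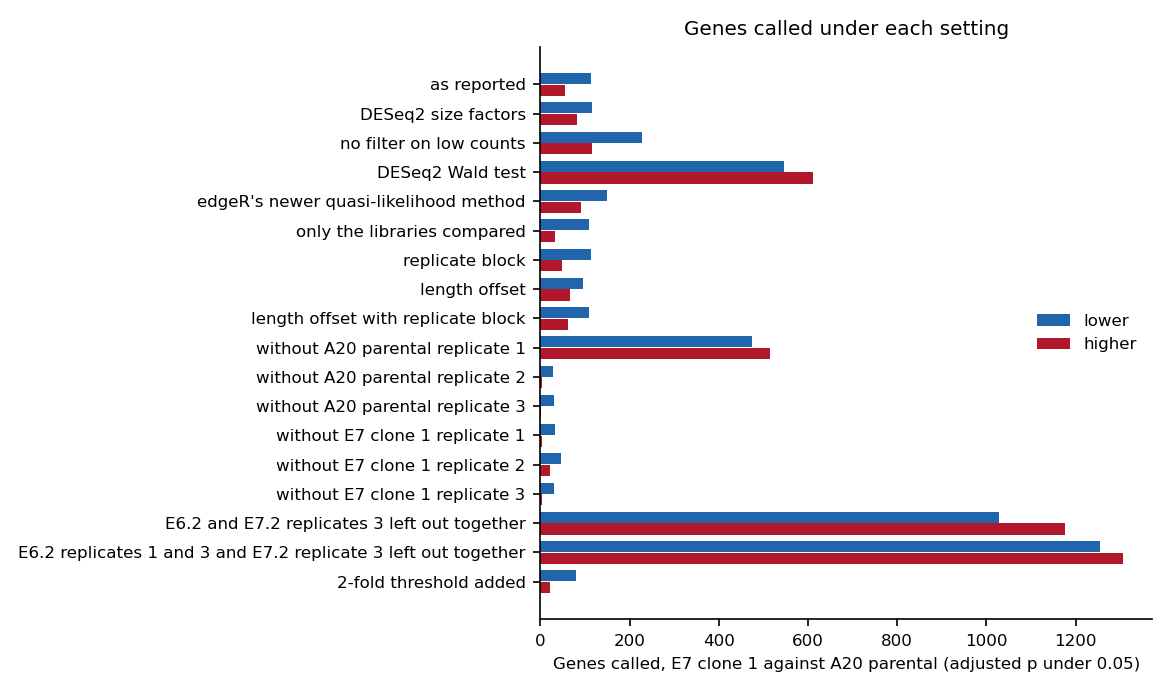
Bars give the number of genes called lower (blue) and higher (red) in E7.1 against A20 parental at an adjusted p under 0.05, for the reported fit and for each alternative. The reported 114 and 55 fall to 29 and 3 without parental replicate 2 and rise to 1028 and 1176 without E6.2 and E7.2 replicates 3 and to 1254 and 1306 when E6.2 replicate 1 is left out too.

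The strongest losses were genes with almost no reads in E7.1. Fam49a, a member of a family that binds active Rac1 (ENSMUSG00000020589, chromosome 12, from 12262139 to 12376359), had 222, 243 and 265 counts in the parental libraries and 0 in each E7.1 library. Against a floor of 3 counts per library it was at least 84.9-fold lower (adjusted p = 3.20e-07). All 3 other clones kept it, at 15.2 ± 0.764 (E6.1), 8.07 ± 1.79 (E6.2) and 9.66 ± 1.91 (E7.2) normalized CPM (SD, n = 3).
Cfap126, a protein of motile cilia, had 42, 67 and 71 counts in the parental libraries, 0 in all E7.1 libraries, and was at least 20.8-fold lower (adjusted p = 4.07e-05). The other clones held it at means of 1.91 to 2.48 normalized CPM. Gm15128, a predicted gene on chromosome X, fell from 88, 62 and 72 counts to 0 and was at least 26.02-fold lower (adjusted p = 9.87e-05), but it was near 0 in E6.1 and E7.2 as well, at 0.142 and 0.0353 normalized CPM. Colq, the collagen tail of acetylcholinesterase, went from 25, 38 and 31 counts to 0, at least 10.8-fold lower (adjusted p = 0.00232), and was likewise at 0.0131 in E6.2 and 0.0620 in E7.2. These 4 calls held in each leave-one-out fit.

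A second group kept a few reads. Zfp941, a zinc finger gene, was at 4.02, 3.63 and 4.51 normalized CPM in the parental libraries and at 0.161, 0 and 0 in E7.1 (adjusted p = 0.000346). Taf9b, a paralog of the TFIID subunit Taf9, was at 4.84, 8.89 and 8.36 against 0.214, 0.0766 and 0.149 (adjusted p = 4.07e-05). Rhod, a small GTPase of endosomes, was at 2.24, 1.58 and 2.39 against 0.0803, 0.0255 and 0.0298 (adjusted p = 0.00227). In none of these genes did the groups come near each other. The other clones held them at means of at least 4.96, 6.22 and 1.91 normalized CPM for Zfp941, Taf9b and Rhod. Cln3, a membrane protein of lysosomes, was weaker in the parental line, at 1.42, 1.47 and 1.43, and fell to 0.187, 0.0766 and 0.0597 (log2 fold change -3.68 ± 0.47, adjusted p = 0.00134), with at least 1.60 in the other clones. All 4 calls held.

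Some of the lost genes were lost in E6.2 too. Il22ra1, a receptor chain for interleukin 22, was at 11.0, 12.7 and 13.5 normalized CPM in the parental libraries and at 0.669, 0.536 and 1.04 in E7.1 (log2 fold change -4.05 ± 0.42, adjusted p = 0.000212). Its mean was 0.835 in E6.2 but 21.8 in E6.1 and 23.6 in E7.2, above the parental level. Cryz, an NADPH-dependent quinone reductase, was at 93.4, 87.4 and 94.0 against 13.1, 21.3 and 21.0 (log2 fold change -2.31 ± 0.20, adjusted p = 4.33e-05), with 17.0 in E6.2, 155 in E6.1 and 221 in E7.2. Bco1, which cleaves beta-carotene, and H1fx, a linker histone, followed the same order of clones, with E7.1 means of 0.0894 and 0.0746 and parental means of 3.56 and 2.02 normalized CPM (adjusted p = 0.000139 and 0.00167). These calls held in all leave-one-out fits.

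Other genes were low in all 4 clones. Iglv2, a variable segment of the immunoglobulin lambda light chain, had 20.2, 16.2 and 19.3 normalized CPM in the parental libraries and 0.0536, 0.128 and 0.209 in E7.1 (adjusted p = 6.88e-05). The clones E6.1, E6.2 and E7.2 held 0.191, 0.340 and 0.319. Iglv3, on the same locus of chromosome 16, was at 27.3, 27.9 and 38.6 against 18.2, 19.3 and 17.9 (log2 fold change -0.76 ± 0.16, adjusted p = 0.0410), a call lost without parental replicate 2 or 3 or any E7.1 library, with adjusted p up to 0.224. Iglv1, another lambda variable segment, was not called, with a log2 fold change of -0.04. How far these segments resemble each other was not tested. Reads shared by close copies were left out of the counts, so single counts can be uncertain. By quantitative PCR the paper also found Iglv2 lower in all its selected clones. Phyhip, a partner of phytanoyl-CoA hydroxylase, fell from 3.45, 2.99 and 2.47 to 0.0536, 0.128 and 0.0895 (log2 fold change -4.98 ± 0.61, adjusted p = 0.00101) and was at 0.0273 to 0.152 in the other clones. Armcx2, an armadillo-repeat gene on chromosome X, fell from 23.8, 21.0 and 23.9 to 6.45, 8.38 and 7.87 (log2 fold change -1.60 ± 0.22, adjusted p = 0.00227). It was the 1 gene called lower against the parental line and higher against the mean of the other clones, since E6.1 held only 0.0109.

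**Figure D3:**
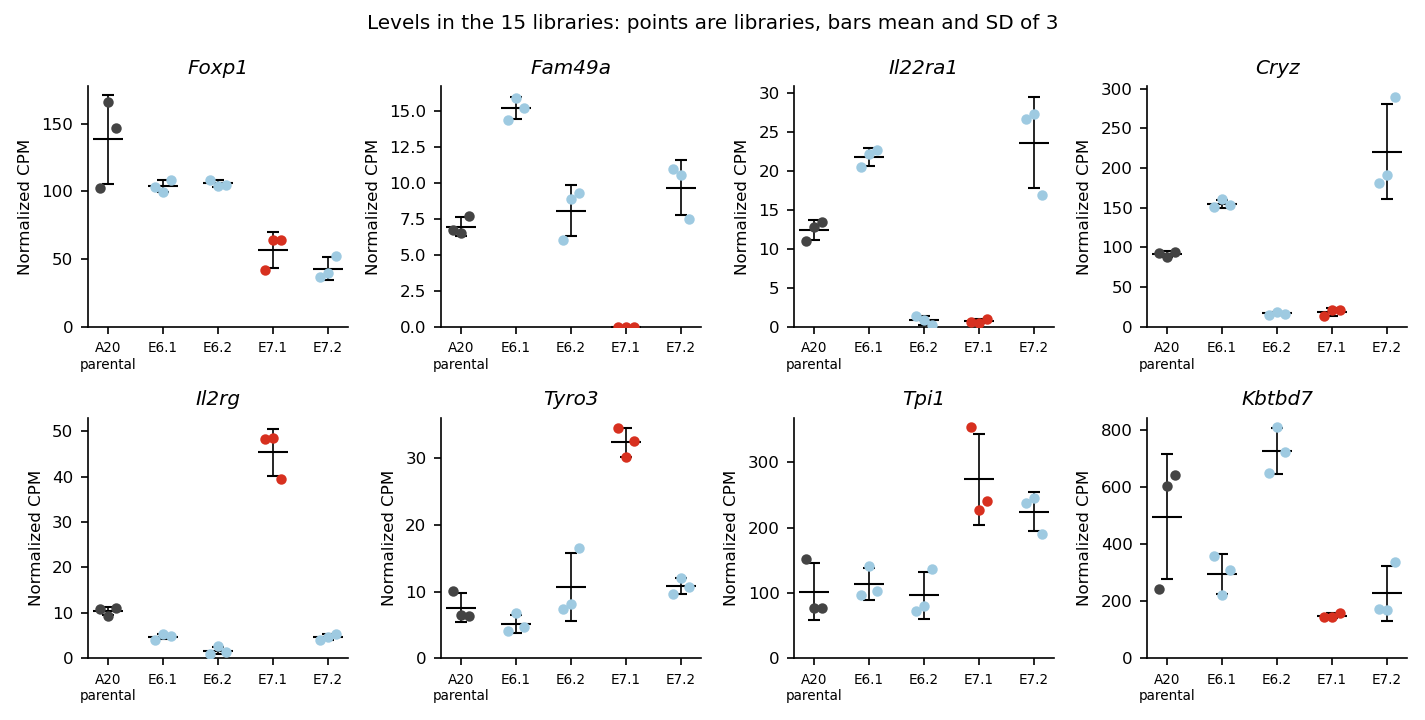
Normalized CPM (y axis, from 0) of 8 genes in the 15 libraries, by line on the x axis, with the 3 libraries of a line as points and the mean and SD as bars (E7.1 red, A20 parental dark grey, other clones light blue). Foxp1 is low in both exon 7 clones, Fam49a is at 0 in E7.1 alone of these lines, Il22ra1 and Cryz are low in E7.1 and E6.2, and Il2rg and Tyro3 are highest in E7.1.

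The 2 higher calls that held in every fit were both receptors. Il2rg, the common gamma chain shared by several interleukin receptors (ENSMUSG00000031304, chromosome X, from 101264378 to 101268255), was at 10.9, 9.29 and 11.1 normalized CPM in the parental libraries and at 48.3, 48.4 and 39.4 in E7.1 (log2 fold change 2.12 ± 0.26, adjusted p = 0.000878). The other clones had means below the parental line, at 4.798 (E6.1), 1.70 (E6.2) and 4.67 (E7.2). Tyro3, a receptor tyrosine kinase bound by Gas6, was at 10.04, 6.49 and 6.29 against 34.5, 30.2 and 32.5 (log2 fold change 2.09 ± 0.30, adjusted p = 0.00353), with 5.16 to 10.8 in the other clones. Among 18 cytokine receptor genes tested, Il2rg was the 1 called higher and Il22ra1 the 1 called lower, with a median log2 fold change of -0.23 beside -0.02 over all tested genes. Of all tested genes 0.396% were called higher and 0.820% lower.

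The steepest rises were of weakly expressed genes. Nav2, a microtubule-associated protein, was at 1.09, 0.400 and 0.320 normalized CPM in the parental libraries and at 4.95, 7.15 and 6.53 in E7.1 (log2 fold change 3.36 ± 0.55, adjusted p = 0.0118). Bpifb4, a lipid-binding protein of the BPI family, was at 0.423, 0.240 and 0.524 against 3.43, 3.47 and 3.19 (log2 fold change 3.08 ± 0.60, adjusted p = 0.0296), and Ms4a14, a membrane protein of the MS4A family, had 0.910, 0.868 and 0.805 where the parental libraries had 0, 0.107 and 0 (adjusted p = 0.0398). The means of the other clones lay below the parental mean for all 3, at no more than 0.196, 0.0510 and 0.0301. The noncoding gene A230056P14Rik was at 10.4, 11.0 and 11.1 against 30.2, 18.7 and 23.2 (log2 fold change 1.15 ± 0.20, adjusted p = 0.0163), with 3.53 to 3.97 in the other clones. Each of these 4 calls was lost when some of the 6 libraries were left out, with adjusted p up to 0.0850 (Nav2), 0.174 (Bpifb4), 0.187 (Ms4a14) and 0.0933 (A230056P14Rik). Nav2 was lost without parental replicate 2 or 3 or E7.1 replicate 3, A230056P14Rik without those or E7.1 replicate 1, Bpifb4 in all but the fit without parental replicate 1, and Ms4a14 in all but those without parental replicate 1 or 2.

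**Figure D4:**
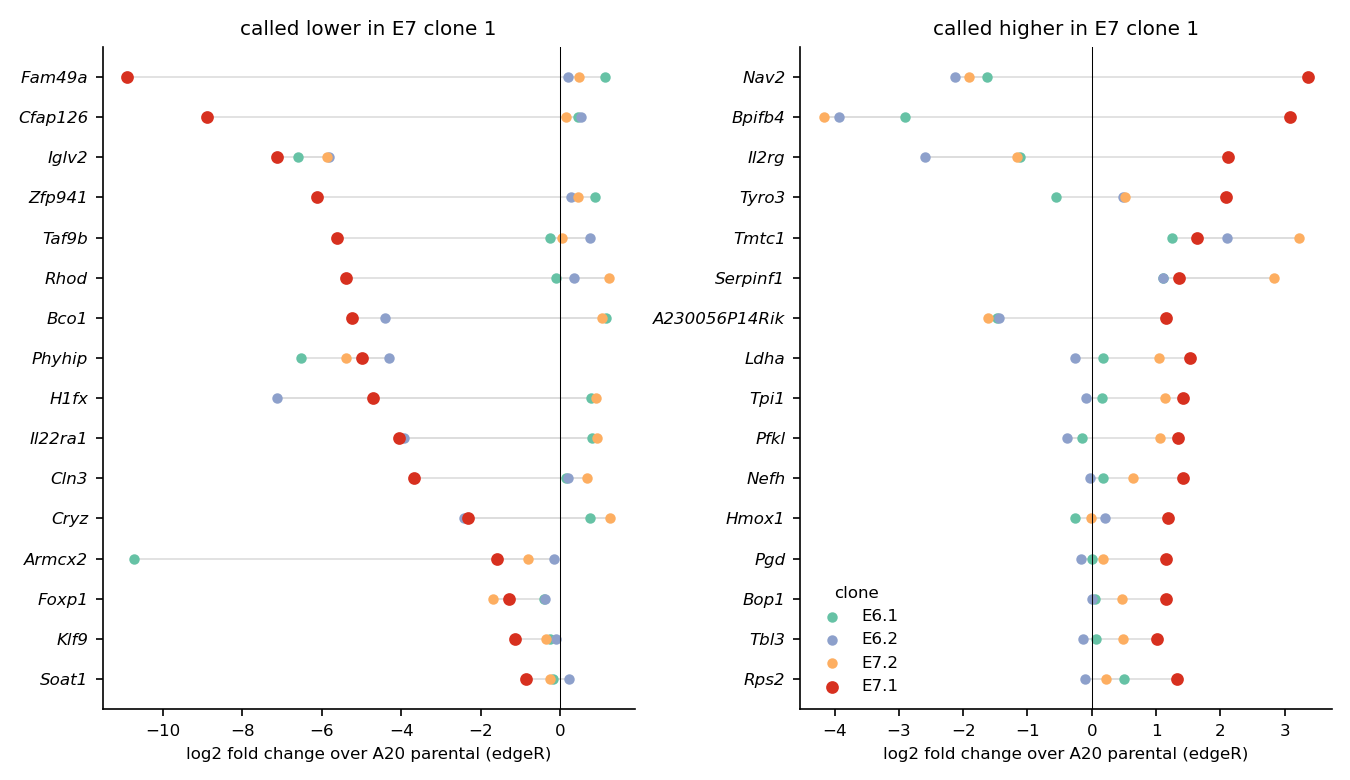
Fitted log2 fold change over A20 parental (x axis) of genes called lower (left) and higher (right) in E7.1, with E7.1 as the larger red points and the other clones in other colors. The clones share the 3 parental libraries. For Fam49a only the E7.1 point lies far below 0, for Iglv2 and Phyhip all 4 points do, and for Il2rg and A230056P14Rik E7.1 lies above 0 with the other 3 below.

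Tested directly, E7.1 differed from the clone cut in the same exon, E7.2, in 51 genes that were lower and 31 that were higher (0.590% of those tested, both together). Of the 114 genes called lower against the parental line, 28 were also lower than in E7.2, and of the 55 called higher, 6 were also higher. Fam49a, Cfap126, Zfp941, Taf9b, Rhod, Bco1, H1fx, Cln3, Cryz and Il22ra1 were among the former, with log2 differences from -11.38 (Fam49a) to -3.58 (Cryz), and Il2rg, Tyro3, Nav2, Bpifb4, Ms4a14 and A230056P14Rik made up the latter. Foxp1 itself was not called between them, with a log2 difference of 0.40 (adjusted p = 0.391) and E7.2 libraries at a mean of 43.0 normalized CPM. Leaving out 1 of these 6 libraries gave 26 to 40 lower and 14 to 22 higher genes, the fewest lower without E7.1 replicate 1 or 3 and the fewest higher without E7.2 replicate 2.

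Against the mean of the other 3 clones, 550 genes were lower in E7.1 (3.96% of those tested) and 733 higher (5.27%), together 9.23%. Of the 114 and 55 genes called against the parental line, 81 and 46 were called in the same direction here. Both comparisons use the E7.1 libraries, so these counts are not independent. The number fell to 30 lower and 57 higher without E7.1 replicate 1, to 75 and 173 without E7.1 replicate 3, to 259 and 404 without E7.1 replicate 2, to 223 and 306 without E6.1 replicate 1 and to 216 and 303 without E6.1 replicate 3. It rose to 1074 and 1314 without E6.2 replicate 3.

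Glycolysis, the breakdown of glucose to pyruvate and lactate, was represented by 22 tested genes, of which 4 were called higher and 0 lower, beside 0.396% of all tested genes called higher. Their median log2 fold change was 0.48 beside -0.02 over all genes. Between E7.1 and E7.2 0 of the 22 were called, with a median log2 difference of 0.009. Against the mean of the other clones 7 were called higher and 1 lower, beside 5.27% and 3.96% of all tested genes. Ldha, which turns pyruvate into lactate (chromosome 7, from 46841475 to 46855627), was at 392, 222 and 216 normalized CPM in the parental libraries and at 1115, 567 and 706 in E7.1 (log2 fold change 1.52 ± 0.33, adjusted p = 0.0441). Tpi1, triose phosphate isomerase, was at 153, 76.3 and 77.0 against 354, 227 and 242 (1.43 ± 0.31, adjusted p = 0.0400). Pfkl, the liver isoform of phosphofructokinase, was at 45.7, 28.3 and 21.6 against 95.5, 68.1 and 79.2 (1.34 ± 0.30, adjusted p = 0.0490), and Pgam1, phosphoglycerate mutase, was at 85.1, 70.1 and 74.6 against 202, 120 and 131 (0.98 ± 0.20, adjusted p = 0.0387). In all 4 genes parental replicate 1 was the highest parental library and E7.1 replicate 1 the highest of the 6. The processed pseudogene Ldha-ps2 was called too (1.81 ± 0.37, adjusted p = 0.0359), and reads may be split between it and Ldha.

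Among 21 genes of the pentose phosphate pathway and redox defense, 3 were higher and 0 lower, with a median log2 fold change of 0.59. Over all tested genes 0.396% were called higher and 0.820% lower, and the median was -0.02. Hmox1, heme oxygenase, was at 161, 124 and 141 normalized CPM against 519, 234 and 221 (1.19 ± 0.25, adjusted p = 0.0400). Pgd, an NADPH-producing dehydrogenase, was at 84.3, 53.9 and 48.9 against 193, 103 and 119 (1.15 ± 0.25, adjusted p = 0.0420), and Nudt1, which clears oxidized nucleotides, was at 17.0, 11.6 and 10.6 against 27.3, 23.3 and 22.7 (0.90 ± 0.21, adjusted p = 0.0490). Both lists depended on the libraries used. Without parental replicate 2, parental replicate 3 or E7.1 replicate 1 none of the 7 calls was left, without E7.1 replicate 2 Pgam1, Hmox1 and Pgd were left, and without E7.1 replicate 3 Hmox1 was. With the 6 compared libraries fitted alone 0 genes of either list were called. With the 2 outlying libraries of E6.2 and E7.2 left out, 11 glycolytic and 7 redox genes were called higher, and 1 glycolytic gene lower, where 8.46% of all genes were higher and 7.39% lower.

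The Ldha promoter is shown as that of the glycolytic gene with the highest fold change. The window runs from 250 bases before to 50 after the RefSeq transcription start (GRCm38.p6, chr7:46845554-46845853, plus strand), and capitals mark the E-box CACGTG, which reads the same on both strands.
Ldha promoter: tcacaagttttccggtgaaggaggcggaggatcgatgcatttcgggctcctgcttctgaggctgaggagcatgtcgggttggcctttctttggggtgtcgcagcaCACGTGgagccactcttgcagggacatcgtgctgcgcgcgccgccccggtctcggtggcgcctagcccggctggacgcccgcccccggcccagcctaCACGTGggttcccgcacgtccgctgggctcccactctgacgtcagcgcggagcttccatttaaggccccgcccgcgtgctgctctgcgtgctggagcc
The window held 2 matches. The second RefSeq window of Ldha held 0. Of 12025 windows of 9488 tested genes, 10.1% held at least 1 match, as did 9.62% of the windows of the higher genes (5 of 52) and 6.84% of those of the lower genes (8 of 117).

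Ribosome biogenesis held the largest number of higher calls of the lists examined, 11 of 68, with 0 lower, a median log2 fold change of 0.31 and 60 of 68 genes above 0. Of all tested genes 0.396% were called higher and 47.8% lay above 0. Tbl3, a component of the small subunit processome, was at 32.2, 22.9 and 21.7 normalized CPM against 56.7, 50.1 and 49.0 (1.02 ± 0.18, adjusted p = 0.0186). Bop1, which acts in large subunit maturation, was at 55.2, 36.6 and 32.6 against 120, 76.5 and 81.2 (1.16 ± 0.21, adjusted p = 0.0223), and Grwd1, a chaperone of a ribosomal protein, was at 28.8, 26.6 and 21.6 against 69.2, 43.4 and 41.9 (1.00 ± 0.19, adjusted p = 0.0296). The other 8 were Rrp15, Ddx56, Polr1e, Urb2, Wdr46, Nop9, Bms1 and Gpatch4, with log2 fold changes from 0.54 to 0.78. In E7.1 the list was highest in replicate 1. The median over its genes of the log2 level (with 0.5 CPM added), relative to the parental mean, was 0.52, 0.22 and 0.21 in the E7.1 libraries and between -0.04 and 0.04 in the parental libraries. None of the 11 calls was left without parental replicate 2, parental replicate 3 or E7.1 replicate 1, 5 were left without E7.1 replicate 2 and 1 without E7.1 replicate 3, and 30 genes were called with the 2 outlying libraries left out, beside 8.46% of all genes. Of the 11 calls 1 was left with the 6 compared libraries fitted alone, 5 with the replicate number as a block and 6 without the filter on low counts.

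The ribosomal proteins themselves were mostly uncalled. Of 79 cytosolic ribosomal protein genes only Rps2 was called, at 36.8, 33.8 and 27.1 normalized CPM against 71.3, 99.1 and 74.8 (1.33 ± 0.29, adjusted p = 0.0464), and the median of the list was -0.08. Over all tested genes 0.396% were called higher and the median was -0.02. Rps2 has many processed copies, so its count is uncertain, and its call was lost in 5 of the 6 leave-one-out fits, those that kept parental replicate 1.

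Genes of oxidative phosphorylation lay mostly above 0 by small amounts without passing the test. Of 77 genes of oxidative phosphorylation 0 were called by edgeR. At an unadjusted p under 0.05, 31 were higher and 0 lower, beside 9.94% and 10.01% of all tested genes. DESeq2 called 16 higher, beside 4.39%. The fold change lay above 0 for 66, with a median log2 fold change of 0.35, and in 46 of the 77 (59.7%) all E7.1 libraries lay above all parental libraries, beside 16.4% of all tested genes. Atp5b, the beta subunit of ATP synthase, was at 1691, 1547 and 1677 normalized CPM against 2287, 2253 and 2100 (0.43 ± 0.21, adjusted p = 0.258). With the 2 outlying libraries left out 27 were called, and without parental replicate 1 19, all higher. Of all tested genes 8.46% and 3.70% were called higher in these fits. The 30 tested genes of the mitochondrial genome had a median of -0.02 and 0 calls. Among 43 genes of mitochondrial import and assembly, with a median of 0.10 and 26 above 0, Chchd4 (0.62 ± 0.12, adjusted p = 0.0296), Coa3 (0.82 ± 0.16, adjusted p = 0.0298) and Cluh (0.94 ± 0.20, adjusted p = 0.0400) were higher and Sdhaf3 was lower (-0.65 ± 0.14, adjusted p = 0.0459). Of the 31 proteasome genes Psmc4, an ATPase subunit, was called, at 71.7, 105 and 111 normalized CPM against 207, 158 and 157 (0.86 ± 0.17, adjusted p = 0.0328), and 26 lay above 0. In the main fit 0.396% of all tested genes were called higher and 0.820% lower, and 47.8% lay above 0. The calls of Chchd4, Coa3, Cluh, Sdhaf3 and Psmc4 were each left only in the leave-one-out fit without parental replicate 1, and Cluh was the 1 of the 5 left with the 6 compared libraries fitted alone.

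**Figure D5:**
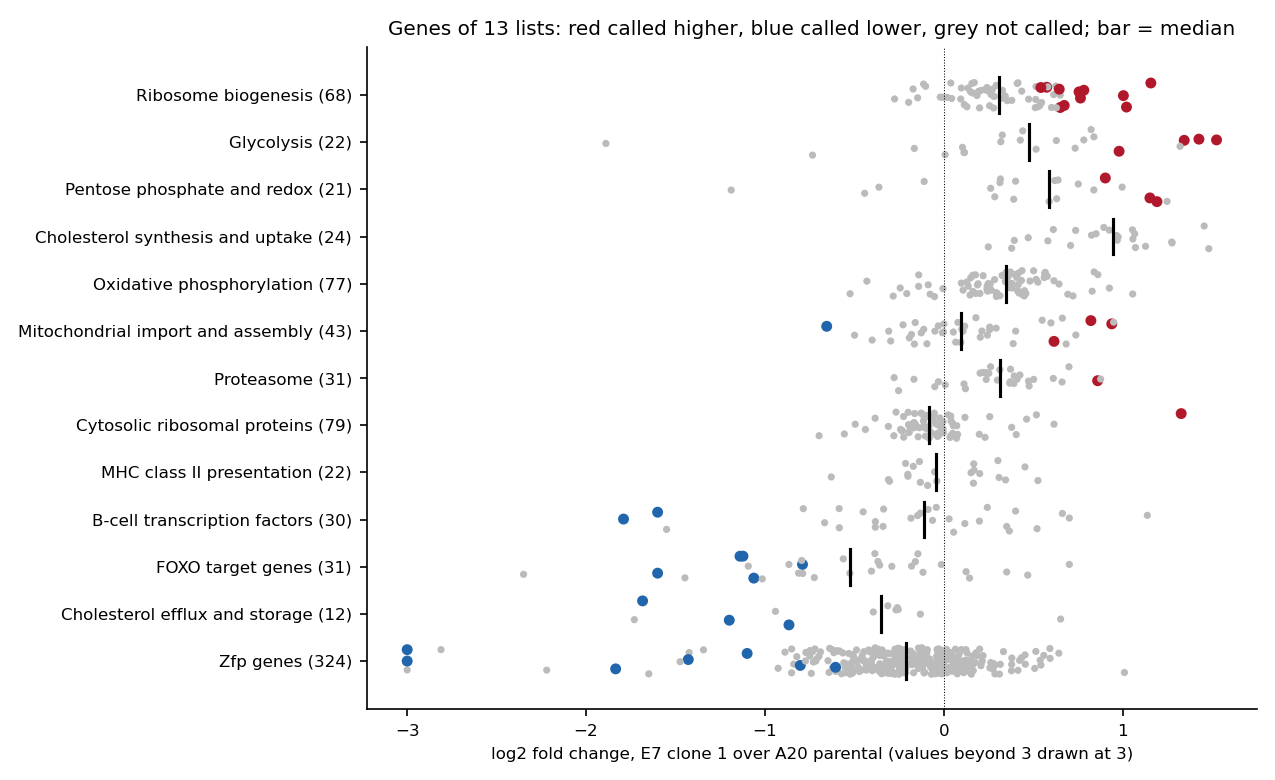
Fitted log2 fold change, E7.1 over A20 parental (x axis), of each tested gene in 13 lists (rows, number of genes in parentheses), with called genes in red (higher) or blue (lower), uncalled genes in grey, and a bar at the median. Ribosome biogenesis has 11 red points, the cholesterol synthesis list has all 24 points above 0 but none called, and the FOXO target list has 5 blue points and a median of -0.53.

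Genes of cholesterol synthesis and uptake had the highest median of the lists examined but 0 calls by edgeR. At an unadjusted p under 0.05 there were 19 of 24 higher and 0 lower, beside 9.94% and 10.01% of all tested genes. DESeq2 called 6 higher, beside 4.39%. The 19 became 6 without parental replicate 2, 5 without parental replicate 3 and 7 without E7.1 replicate 1. All 24 tested genes had a log2 fold change above 0, with a median of 0.95 and a range from 0.25 to 1.48. Hmgcs1, an early enzyme of the pathway, was at 513, 137 and 147 normalized CPM in the parental libraries and at 684, 447 and 526 in E7.1 (1.06 ± 0.44, adjusted p = 0.196). Cyp51, a demethylase of lanosterol, was at 336, 162 and 150 against 464, 317 and 365 (0.83 ± 0.35, adjusted p = 0.211). In both genes parental replicate 1 lay within the range of E7.1, far above the other parental libraries.

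The whole list had this shape. Its median log2 level relative to the parental mean was 0.78 in parental replicate 1, -0.46 and -0.42 in parental replicates 2 and 3, and 1.30, 0.87 and 0.96 in the E7.1 libraries. Without parental replicate 1, 17 of the 24 genes were called higher, beside 3.70% of all genes, and the median was 1.41. Without parental replicate 2 or 3, or any E7.1 library, 0 were called and the median stayed between 0.74 and 1.01. Against the mean of the other clones 15 of the 24 were called higher, beside 5.27% of all tested genes, with a median of 0.96. Against E7.2 by itself 0 were called, with a median of 0.56. Relative to the parental mean, the list stood at 0.61, 0.62 and -0.08 in the E7.2 libraries.

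Of 12 tested genes of cholesterol efflux and storage, 3 were lower and 0 higher, with a median of -0.35, beside 0.820% of all genes called lower. Soat1, which esterifies cholesterol for storage, was at 62.8, 47.9 and 51.1 normalized CPM against 28.2, 30.0 and 30.6 (-0.87 ± 0.15, adjusted p = 0.0175). Nr1h3, the oxysterol receptor LXR alpha, was at 0.635, 1.25 and 1.11 against 0.321, 0.306 and 0.298 (-1.68 ± 0.38, adjusted p = 0.0483), and Stard5, a sterol and bile acid carrier, was at 94.1, 156 and 166 against 37.6, 79.9 and 64.0 (-1.20 ± 0.27, adjusted p = 0.0490). Parental replicate 1 was the parental library nearest to E7.1 in Nr1h3 and Stard5 but not in Soat1. All 3 were called without parental replicate 1, Soat1 alone without parental replicate 2, and none without parental replicate 3 or any E7.1 library. With the 6 compared libraries alone, or with an offset for gene length, 1 of the 3 was left. Stard5 was the member that was also lower than in E7.2 (log2 difference -1.31, adjusted p = 0.0466).

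FOXO factors drive genes of growth arrest and cell death when growth factor signaling is low. Of 31 tested genes known as their targets, 5 were lower in E7.1 and 0 higher, with a median log2 fold change of -0.53 and 26 of 31 below 0. Of all tested genes 0.820% were called lower and 52.2% lay below 0. Klf9, a Krüppel-like transcription factor, was at 15.3, 16.9 and 16.7 normalized CPM against 5.97, 8.94 and 7.52 (-1.12 ± 0.19, adjusted p = 0.0175). Zeb2, a transcriptional repressor, was at 12.6, 19.9 and 22.5 against 4.58, 6.97 and 6.59 (-1.60 ± 0.29, adjusted p = 0.0222). Trp53inp1, a stress protein of autophagy, was at 158, 201 and 211 against 74.1, 89.8 and 95.1 (-1.14 ± 0.22, adjusted p = 0.0293).

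The other FOXO targets called were Cdkn1b, the cell-cycle inhibitor p27, at 46.6, 79.4 and 67.3 against 25.6, 32.8 and 34.2 (-1.06 ± 0.24, adjusted p = 0.0490), and Pmaip1, the death gene Noxa, at 60.7, 79.9 and 81.4 against 41.4, 46.0 and 41.0 (-0.79 ± 0.17, adjusted p = 0.0400). Pmaip1 was also the 1 called member of 14 tested Bcl2 family genes, beside 0.820% of all tested genes called lower. In none of the 5 genes did the groups overlap, which was so for every called gene. Over all tested genes, E7.1 lay wholly below the parental libraries in 15.6%. All 5 were called without parental replicate 1, Klf9 alone without E7.1 replicate 2, and none without parental replicate 2 or 3 or E7.1 replicate 1 or 3. Bcl6, also a member, had a log2 fold change of 0.35 ± 0.22 (adjusted p = 0.393).

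The promoters of Klf9 and Stard5 are shown as those of called lower genes, 1 from each of the FOXO and cholesterol efflux lists, that hold a forkhead motif. Capitals mark TGTTTAC or its reverse complement GTAAACA, and the windows are RefSeq's on GRCm38.p6, both on the plus strand, at chr19:23140976-23141275 and chr7:83631767-83632066.
Klf9 promoter: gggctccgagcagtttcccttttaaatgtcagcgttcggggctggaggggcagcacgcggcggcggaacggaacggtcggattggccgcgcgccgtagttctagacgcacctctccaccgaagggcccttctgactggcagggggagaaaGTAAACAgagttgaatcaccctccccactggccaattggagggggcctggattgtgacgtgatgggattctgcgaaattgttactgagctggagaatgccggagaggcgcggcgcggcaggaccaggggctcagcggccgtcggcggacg
Stard5 promoter: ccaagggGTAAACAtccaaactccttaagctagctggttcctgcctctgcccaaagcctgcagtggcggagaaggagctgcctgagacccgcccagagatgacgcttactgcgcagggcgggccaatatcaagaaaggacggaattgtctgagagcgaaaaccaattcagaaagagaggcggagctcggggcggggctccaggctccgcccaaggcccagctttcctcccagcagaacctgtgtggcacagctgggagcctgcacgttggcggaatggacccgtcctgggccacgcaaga
Of the 12025 windows, 2.54% held the motif on either strand. The share was 5.13% for windows of the lower genes (6 of 117) and 1.92% for those of the higher genes (1 of 52). Among the 6 were the windows of Zfp874a and Zfp874b, which resemble each other in sequence. Windows of Cdkn1b, Zeb2, Soat1 and Nr1h3, also called members of the FOXO or cholesterol efflux lists, held no match. A match is a description of the letters and not a measured binding site.

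Genes of antigen presentation were the study's main question. By flow cytometry the paper found surface MHC class II protein raised in all its selected clones, E7.1 included. It found Cd74 protein unchanged or reduced without consistency. MHC class II was not among the genes it found lowered in common, and it proposes regulation after transcription, which was not tested here. The values below are of transcript. Of 22 tested genes of MHC class II presentation 0 were called in either direction, with a median log2 fold change of -0.05 that ranged from -0.09 to 0.20 over the alternatives. Cd74, the invariant chain, was at 2185, 1975 and 2250 normalized CPM against 2283, 2720 and 2195 (0.17 ± 0.19, adjusted p = 0.668). H2-Aa was at 808, 627 and 712 against 788, 906 and 721 (0.17 ± 0.26, adjusted p = 0.761), and H2-Ab1 was at 358, 260 and 301 against 390, 401 and 342 (0.30 ± 0.23, adjusted p = 0.493). The groups overlapped in Cd74, H2-Aa and H2-Ab1, and differences of the size of these errors could not be detected. At an unadjusted p under 0.05, 2 of the class II genes were higher and 1 was lower, and DESeq2 called 1 higher. Of 17 MHC class I genes, 16 T-cell costimulatory and checkpoint ligands and 24 interferon-stimulated genes, 0 were called by edgeR. DESeq2 called 2 class I genes higher, 1 ligand higher and 2 lower, and 1 interferon-stimulated gene lower. Unadjusted p-values under 0.05 were found for 5, 3 and 1 genes. Over all tested genes the unadjusted shares were 9.94% higher and 10.01% lower, and DESeq2 called 4.39% higher and 3.93% lower. With the 2 outlying libraries left out, MHC class II had 0 calls and MHC class I 4 higher. The ligands then had 1 higher and 3 lower, and the interferon-stimulated genes 2 higher and 1 lower. Of all tested genes 8.46% were higher and 7.39% lower in that fit. Without parental replicate 1, 1 class II gene was called higher, beside 3.70% of all tested genes.

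B-cell transcription factors were mostly uncalled. Of 30 tested, Zeb2 and Zbtb18 were lower, beside 0.820% of all tested genes called lower and 0.396% higher. Zbtb18, a repressor, was at 59.6, 115 and 122 normalized CPM against 15.1, 38.8 and 31.9 (-1.79 ± 0.37, adjusted p = 0.0398). Pou2af1, the B-cell coactivator and the most abundant transcript of the list by CPM, was at 2320, 3024 and 3120 against 2865, 2259 and 2605 (-0.13 ± 0.20, adjusted p = 0.756). In the B-cell receptor signaling list 2 of 33 were lower, among them Sos2, an exchange factor for Ras, at 105, 137 and 138 against 61.3, 86.1 and 88.1 (-0.69 ± 0.15, adjusted p = 0.0445). In the list of Ras and MAPK signaling Sos2 and Map3k1 (-0.79 ± 0.15, adjusted p = 0.0296) were lower and Hras was higher (0.82 ± 0.17, adjusted p = 0.0400), of 27 tested. The calls of Zeb2, Zbtb18, Sos2, Map3k1 and Hras were left in the fit without parental replicate 1 and lost without any other of the 6 libraries.

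Beside the counts of this paragraph, 0.396% of all tested genes were called higher and 0.820% lower. Of 21 genes of G1 control, Cdc34, a ubiquitin-conjugating enzyme that acts in the turnover of cell-cycle inhibitors, was higher (0.56 ± 0.12, adjusted p = 0.0483) and Cdkn1b was lower. Of 29 regulators of AMPK and mTORC1, Prkaa2, a catalytic AMPK subunit, was at 16.4, 20.5 and 21.7 normalized CPM against 8.65, 11.1 and 11.9 (-0.89 ± 0.16, adjusted p = 0.0223), and Deptor, an inhibitor of mTOR, was at 2.33, 2.80 and 3.00 against 0.428, 1.15 and 0.984 (-1.66 ± 0.35, adjusted p = 0.0398). Both were lower and no member was higher. In the leave-one-out fits these calls too were left only without parental replicate 1, and with the 6 compared libraries alone 0 of these 4 were left.

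Genes of the Zfp symbol, most of which encode zinc finger proteins, leaned downward. Of 324 tested, 7 were lower and 0 higher, with a median log2 fold change of -0.21 and 227 below 0 (70.1%). Of all tested genes 0.820% were called lower and 52.2% lay below 0. Zfp932 was at 66.7, 129 and 160 normalized CPM against 40.3, 44.1 and 47.6 (-1.43 ± 0.25, adjusted p = 0.0186), Zfp990 was at 2.12, 1.495 and 1.11 against 0.375, 0.434 and 0.507 (-1.83 ± 0.38, adjusted p = 0.0398), and Zfp979 had 16, 18 and 11 counts against 0, at least 5.21-fold lower (adjusted p = 0.0490). The others were Zfp941, described above, and Zfp874a, Zfp874b and Zfp984. Close paralogs among these genes make single counts uncertain. Zfp941 was the 1 call of the 7 left without parental replicate 2 or 3 or any E7.1 library, and 3 of the 7 were left with the 6 compared libraries alone. With the 2 outlying libraries left out 48 were lower and 4 higher, where 7.39% and 8.46% of all genes were.

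Several abundant transcripts were lower. Kbtbd7, an adaptor of cullin ubiquitin ligases, was at 244, 603 and 645 normalized CPM against 143, 144 and 159 (-1.74 ± 0.34, adjusted p = 0.0296). Man1a, a Golgi mannosidase that trims N-glycans, was at 270, 589 and 625 against 188, 183 and 162 (-1.48 ± 0.33, adjusted p = 0.0490). In both, parental replicate 1 lay well below the other parental libraries. Erbin, a scaffold at cell junctions, was at 263, 288 and 277 against 191, 181 and 198 (-0.54 ± 0.12, adjusted p = 0.0420), and Jmjd1c, a JmjC-domain protein, was at 163, 199 and 193 against 116, 113 and 115 (-0.69 ± 0.14, adjusted p = 0.0398). All 4 calls were left only without parental replicate 1, and the other leave-one-out fits gave adjusted p up to 0.225 (Man1a).

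Among the remaining higher genes, Nefh, the heavy neurofilament chain, was at 53.0, 32.0 and 35.9 normalized CPM against 153, 83.9 and 88.1 (1.43 ± 0.27, adjusted p = 0.0279), and Hcls1, an actin-binding substrate of Lyn, was at 90.9, 87.7 and 92.1 against 163, 133 and 126 (0.64 ± 0.14, adjusted p = 0.0477). Tmtc1, an enzyme of protein mannosylation in the endoplasmic reticulum, was at 5.99, 6.78 and 8.73 against 26.2, 20.3 and 20.7 (1.64 ± 0.37, adjusted p = 0.0490) and had its highest mean, 67.4, in E7.2. Serpinf1, a secreted serpin, rose from 0.605, 0.828 and 0.699 to 2.06, 1.89 and 1.52 (1.36 ± 0.29, adjusted p = 0.0400) and was at 5.11 in E7.2, above E7.1 by the direct test (log2 difference -1.48, adjusted p = 0.0249). Tmtc1 was called in none of the 6 leave-one-out fits, Serpinf1 and Hcls1 in the 1 without parental replicate 1, and Nefh in those without parental replicate 1 or E7.1 replicate 2.

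The called genes were spread over the chromosomes. Each of the 19 autosomes and chromosome X held between 4 and 17 of them, with shares of tested genes from 0.525% (chromosome 9) to 2.10% (chromosome 14), and the median log2 fold change of a chromosome lay between -0.13 (chromosome 18) and 0.05 (chromosome 19). Chromosome 6, which carries Foxp1, had 7 lower and 4 higher of 651 genes tested, a share of 1.69%.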

How the data were processed

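The members and gene lists were chosen with earlier results of these data known. RNA was sequenced from 3 passages of each line. The authors aligned reads with HISAT and deposited featureCounts tables (version 1.5.0, GRCm38 annotation), in which each value is a count of read pairs per gene, not normalized. Strand was not used, so a gene and its antisense partner cannot be told apart, and reads shared by overlapping genes or close copies were left out. The 92 spike-in rows held 0 counts. Symbols were matched for 40254 of 41388 genes.

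Genes were filtered with filterByExpr, scaled by TMM and fitted in edgeR 4.0.16 (R 4.3.3) over all 15 libraries with line as the factor, followed by quasi-likelihood F-tests, two-sided, with Benjamini-Hochberg adjustment over all 13904 tested genes. Genes were called at an adjusted p under 0.05. Standard errors were derived from the F statistic, and SDs are over 3 libraries. The alternatives were DESeq2 1.42.0 (Wald test and size factors), no filter, edgeR's newer quasi-likelihood method, only the libraries compared, the replicate number as a block, a length offset, a 2-fold threshold, and each library left out. Added after the data were seen were leaving out E6.2 and E7.2 replicates 3, with or without E6.2 replicate 1, and comparing with E6.1 and E7.2 only. No pair of libraries agreed within sampling noise. The fit was tested on simulated counts, where 40 of 100 2-fold and 73 of 100 4-fold changes in E7.1 were recovered. Of the genes left unchanged there, 7 were called. Gene lists were described by counts and medians, with no set test. Named were the Foxp genes, the called genes with the largest changes or highest CPM, up to 8 called members of each list by p and up to 3 uncalled ones by CPM, and called genes at the count floor; Armcx2, Nop9, Gpatch4, Rhpn2, Nemp1 and Zfp804b were added after their values were seen. A few genes picked by this rule are not reported. Total counts of 26328054 to 39181530 per library limit precision for weak genes. Promoter windows are RefSeq's on GRCm38.p6.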

Additional observations from a re-analysis of the deposited data

Results flagged for a closer look

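Among the genes named for E7.1, 18 were called against the parental line and also differed from E7.2, the other clone cut in exon 7, by edgeR's test of the difference between the clones. Both contrasts use the E7.1 libraries.

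Lower than in E7.2 were Fam49a (log2 difference -11.38, adjusted p = 1.70e-07), Cfap126 (-9.04), Rhod (-6.64), Zfp941 (-6.59), Bco1 (-6.29), Taf9b (-5.67), H1fx (-5.62), Il22ra1 (-4.98), Cln3 (-4.35), Cryz (-3.58), Serpinf1 (-1.48) and Stard5 (-1.31, adjusted p = 0.0466). Fam49a and Cfap126 had 0 counts in E7.1, so their fitted differences depend on the prior count. Serpinf1 differed from the rest of this group, since E7.1 was above the parental line and below E7.2.

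Higher than in E7.2 were Bpifb4 (7.24), Nav2 (5.27), Ms4a14 (5.26), Il2rg (3.28, adjusted p = 1.66e-05), A230056P14Rik (2.77) and Tyro3 (1.58, adjusted p = 0.0249). For A230056P14Rik the other 3 clones were each called lower than the parental line, with adjusted p from 0.00161 to 0.00221, while E7.1 was called higher.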

How the results depend on the processing

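With E7.1 against the parental line, 114 lower and 55 higher genes became 227 and 116 without the filter, 546 and 611 by DESeq2's Wald test (52.8% higher, beside 32.5%), 1028 and 1176 without the 2 outlying libraries, and 1254 and 1306 with E6.2 replicate 1 left out too. The higher count was 91 by edgeR's newer method, 32 with the 6 libraries alone and 21 at 2-fold. Leaving out 1 library gave 29 to 474 lower and 2 to 514 higher. Against E7.2, the 51 lower and 31 higher genes became 195 and 92 (DESeq2) and 23 and 18 (6 libraries alone), and the lower count was 99 without the filter and 78 or 80 without the 2 or 3 outlying libraries. Leaving out 1 library gave 26 to 40 and 14 to 22. Against the other clones, 550 and 733 became 1126 and 1183 (DESeq2), 1467 and 1781 (2 outlying libraries left out), 1257 and 1459 (3 left out), 122 and 119 (E6.1 and E7.2 only) and 220 and 225 (2-fold), with 30 to 1074 and 57 to 1314 when 1 library was left out. The causes were not tested. Foxp1 stayed called throughout, from -1.44 to -1.11 (leave-one-out). Foxp4 alone of the named genes changed sign, with -0.0044 to 0.165 over the leave-one-out fits, the lowest without parental replicate 3. The numbers do not pair the replicates: deviations of same-numbered libraries correlated at 0.0584, -0.0888 and -0.0076. With the replicate number as a block, 114 lower and 49 higher genes were called, of which 129 were among the 169. Depth limits calls on genes near 3 counts.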
